A study of Danio rerio with 2 samples.

Results

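Neurons of the male zebrafish hypothalamus that carry transcripts of neurod6a or neurod6b together with a vesicular glutamate transporter are described here. Whole hypothalami were dissociated and profiled by droplet single-cell RNA sequencing in 2 libraries, 1 of CCK1/2-KO fish, in which CRISPR/Cas9 had disrupted both cholecystokinin genes, and 1 of WT fish of the AB strain. Each library was a pool of 30 males at 6 months of age, so that differences between fish cannot be seen and the genotype and the library cannot be told apart. Each file lists, for every gene, the number of unique molecular identifiers (UMIs, individually tagged transcript molecules) in each barcode, a barcode standing for 1 captured cell.

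A barcode was counted as a neurod6 neuron when it held 1000 or more UMIs, at least 2 UMIs of neurod6a and neurod6b together, and at least 1 UMI of slc17a6a, slc17a6b or slc17a7a. The neurons were thus selected on the measured UMIs of these 5 genes, and the levels of the 5 genes describe the selection. The rule found 997 neurod6 neurons among 20968 barcodes, namely 529 of 11604 in the CCK1/2-KO library and 468 of 9364 in the WT library. They were set beside the 2238 other barcodes (1281 in CCK1/2-KO and 957 in WT) with 1000 or more UMIs that held slc17a6a or slc17a6b but were not selected, called the other glutamatergic barcodes.

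NeuroD proteins are basic helix-loop-helix transcription factors that act in the differentiation and maintenance of neurons. In the mouse, Neurod6 is best known from excitatory neurons of the cortex and hippocampus, where Neurod1 and Neurod2 are also expressed. The slc17a6 and slc17a7 genes encode transporters that load glutamate into synaptic vesicles, and calb2a encodes calretinin, a calcium-binding protein used as a marker of neuronal subsets.

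The selected barcodes held a median of 8 neurod6 UMIs in CCK1/2-KO and 8 in WT, with highest values of 54 and 44. Just inside the limit, 59 CCK1/2-KO and 58 WT barcodes held exactly 2 neurod6 UMIs. Just outside it, 151 CCK1/2-KO and 128 WT barcodes with a glutamate transporter held 1 neurod6 UMI, and 207 and 179 barcodes of the same libraries held 2 or more neurod6 UMIs but no transporter UMI. Both paralogues were seen together in most neurod6 neurons, 396 in CCK1/2-KO and 345 in WT. Only neurod6a was seen in 92 CCK1/2-KO and 80 WT neurons, and only neurod6b in 41 CCK1/2-KO and 43 WT neurons. The transporter was mainly slc17a6b, present in 413 CCK1/2-KO and 410 WT neurons, and slc17a6a, present in 319 CCK1/2-KO and 264 WT neurons. Transcripts of slc17a7a, the transporter gene typical of the mammalian cortex, were seen in 3 CCK1/2-KO and 5 WT neurons.

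Free RNA in the suspension gives stray UMIs to every droplet, and red blood cells, which should lack neurod6, show how many. Among barcodes with 20% or more haemoglobin UMIs, 3.63% of 771 in CCK1/2-KO and 3.27% of 581 in WT held any neurod6 UMI, at median depths of 1424 and 1486 UMIs, against 15.5% and 16.8% of all barcodes with 1000 or more UMIs. None of these red-cell barcodes met the rule, which their low depth made unlikely, so that this says little about deeper barcodes. Neurod6 neurons had median depths of 5902 UMIs in CCK1/2-KO and 7199 UMIs in WT, and the other glutamatergic barcodes 8782 UMIs in CCK1/2-KO and 9752 UMIs in WT. The 2 libraries shared 52 barcode sequences, none of them a neurod6 neuron.

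To describe what else these neurons express, the UMIs of each gene were summed over a set of barcodes and divided by all UMIs of the set, and scaled to a total of 1000000 (counts per 1000000 UMIs, CPM). Neurod6 neurons differed from the other glutamatergic barcodes in many genes, among the highest of which were calb2a, a trio of further basic helix-loop-helix genes (neurod1, neurod2 and bhlhe22), signalling genes and synaptic receptors. Of 14819 genes compared, 396 (2.67%) were 2-fold or more higher in the neurod6 neurons of both libraries after 5 CPM were added to each level, and 422 (2.85%) were 2-fold or more lower. No test was run: barcodes are not replicates, each genotype had 1 library, and the values of the 2 libraries are given side by side. The intervals given are 95% limits for counting error only.

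With 5 CPM added to each level, the gene highest above the other glutamatergic barcodes was calb2a. Its level was 647 CPM in CCK1/2-KO and 729 CPM in WT neurod6 neurons, against 26.3 CPM in CCK1/2-KO and 31.7 CPM in WT among the other glutamatergic barcodes. The log2 ratio with nothing added was 4.62 (4.46 to 4.79) in CCK1/2-KO and 4.52 (4.36 to 4.69) in WT, below those of nebl (5.42 and 5.12) and neurod2 (5.04 and 5.52). Transcripts of calb2a were found in 80.5% of CCK1/2-KO and 80.3% of WT neurod6 neurons. When every barcode was reduced at random to 1000 UMIs to remove differences in depth, calb2a remained in 46.9% of CCK1/2-KO and 52.8% of WT neurod6 neurons, against 2.65% and 3.55% of the other glutamatergic barcodes and 1.04% and 1.55% of red-cell barcodes of the same libraries.

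Transcription factors of the neurogenic families stood out next. The level of neurod1 was 299 CPM in CCK1/2-KO and 324 CPM in WT neurod6 neurons, against 12.5 and 9.53 CPM in the others of the same libraries. For neurod2 the levels were 93.8 CPM in CCK1/2-KO and 84.7 CPM in WT neurod6 neurons, against 2.85 and 1.85 CPM. The related repressor gene bhlhe22 had 153 CPM in CCK1/2-KO and 137 CPM in WT neurod6 neurons, against 5.94 and 6.61 CPM. Each of the 3 genes was seen in part of the neurod6 neurons, with neurod1 in 53.3% of CCK1/2-KO and 56.8% of WT neurod6 neurons, neurod2 in 40.5% and 40.8%, and bhlhe22 in 44.8% and 45.9%. A neuron with no UMI of a gene at this depth need not lack its transcripts. The proneural genes atoh1a and neurog3, which act in progenitors, gave no UMI in any neurod6 neuron, which allows up to 0.739 CPM in CCK1/2-KO and 0.72 CPM in WT. The zinc-finger repressor zbtb18 had 582 CPM in CCK1/2-KO and 482 CPM in WT neurod6 neurons, against 31.6 and 31.7 CPM in the others.

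**Figure D1:**
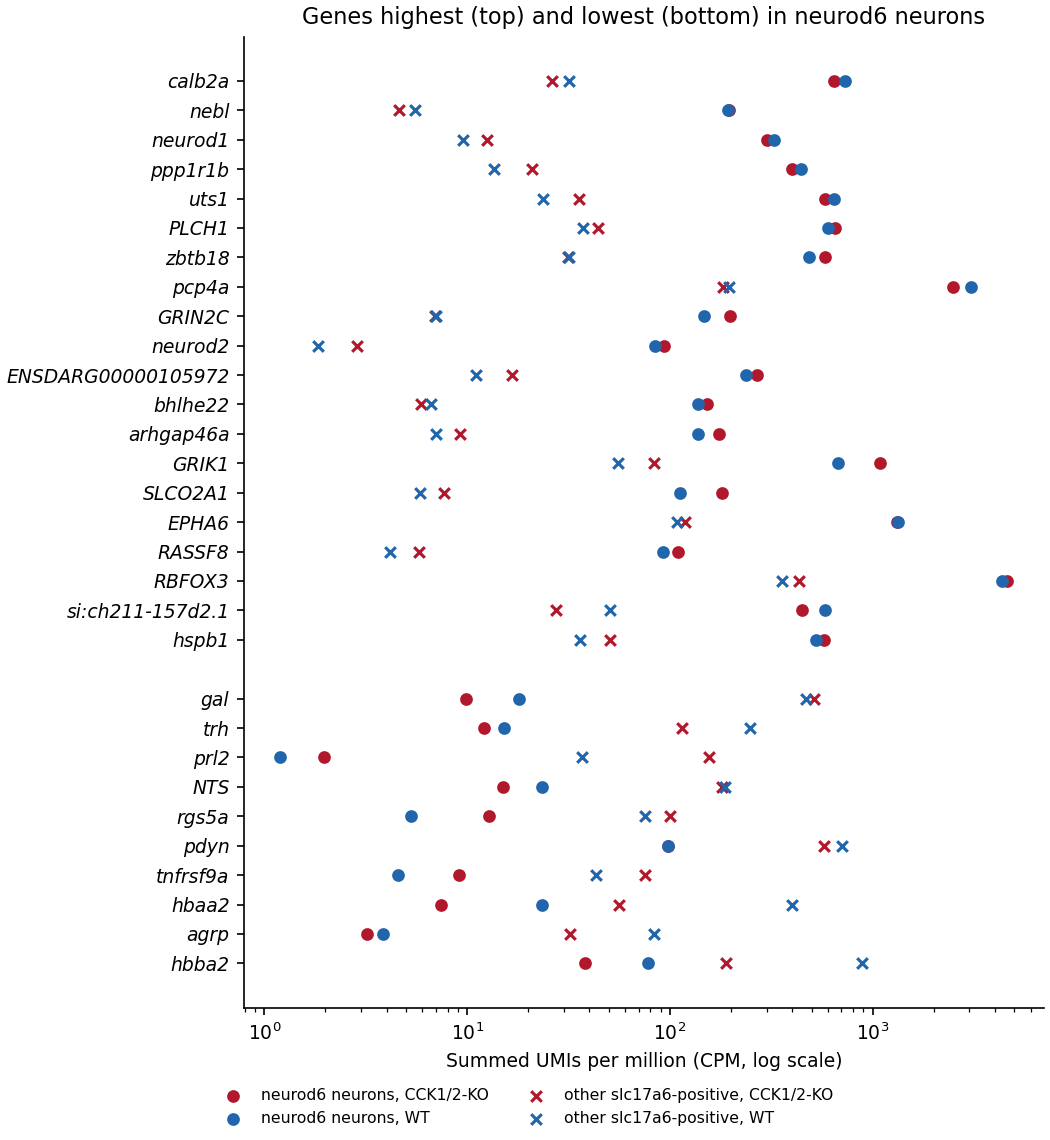
Levels (CPM, log scale) of the 20 genes ranked highest and the 10 ranked lowest in neurod6 neurons against the other glutamatergic barcodes, with filled circles for neurod6 neurons and crosses for the others, red for CCK1/2-KO and blue for WT. The circles of both libraries lie to the right of both crosses for all 20 upper genes, from calb2a to hspb1, and to the left for all 10 lower genes.

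Several of the other highest genes act in signalling or bind actin. The level of ppp1r1b, whose mammalian product DARPP-32 regulates protein phosphatase 1, was 401 CPM in CCK1/2-KO and 441 CPM in WT neurod6 neurons, against 20.8 and 13.5 CPM in the others. The phospholipase gene PLCH1 had 650 CPM in CCK1/2-KO and 600 CPM in WT neurod6 neurons, against 44.2 and 37.3 CPM. The actin-binding nebulette gene nebl was at 196 CPM in CCK1/2-KO and 193 CPM in WT neurod6 neurons, against 4.59 and 5.54 CPM. These 3 genes differed little between the libraries and by more than 10-fold between the sets. The calmodulin-binding gene pcp4a was the second most abundant of the named genes, with 2489 CPM in CCK1/2-KO and 3044 CPM in WT neurod6 neurons, against 183 and 196 CPM in the others. The highest level belonged to one RBFOX3 gene (ENSDARG00000010083, a splicing factor known as NeuN in mammals), at 4614 CPM in CCK1/2-KO and 4345 CPM in WT neurod6 neurons, against 435 and 358 CPM. The ephrin receptor gene EPHA6 had 1319 CPM in CCK1/2-KO and 1337 CPM in WT neurod6 neurons, against 119 and 108 CPM.

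The remaining genes named among the 20 highest were uts1, GRIN2C (ENSDARG00000078149), ENSDARG00000105972, arhgap46a, GRIK1 (ENSDARG00000069139), SLCO2A1, RASSF8, si:ch211-157d2.1 and hspb1. Their levels lay between 92.3 CPM for RASSF8 in WT and 1089 CPM for GRIK1 in CCK1/2-KO. The peptide gene uts1, which encodes urotensin 1 of the corticotropin-releasing hormone family, had 581 CPM in CCK1/2-KO and 640 CPM in WT neurod6 neurons, against 35.6 and 23.5 CPM in the others. It was seen in 52% of CCK1/2-KO and 49.8% of WT neurod6 neurons, against 6.25% and 5.85% of the others.

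Many of these genes occurred in the same barcodes. Of calb2a, ppp1r1b, PLCH1, zbtb18, pcp4a and EPHA6, a set of 6 picked after their levels were seen, all 6 were found together in 53.5% of CCK1/2-KO and 52.8% of WT neurod6 neurons, against 0.546% and 0.731% of the deeper other glutamatergic barcodes. None of the 6 was found in 1.13% of CCK1/2-KO and 2.78% of WT neurod6 neurons.

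The genes lowest in neurod6 neurons were chiefly peptide and hormone genes of other hypothalamic cells. Galanin (gal) had 9.85 CPM in CCK1/2-KO and 18 CPM in WT neurod6 neurons, against 511 and 471 CPM in the others. Of the gal UMIs of the others, 60.9% in CCK1/2-KO and 63.7% in WT lay in 3 barcodes. Without the 3 richest barcodes gal had 8.43 and 10.6 CPM in neurod6 neurons, against 200 and 172 CPM. Any gal UMI was found in 6.99% of CCK1/2-KO and 9.19% of WT neurod6 neurons, against 8.27% and 12.3% of the others. Thyrotropin-releasing hormone (trh) had 12.1 CPM in CCK1/2-KO and 15.1 CPM in WT neurod6 neurons, against 114 and 248 CPM. Neurotensin (NTS), prodynorphin (pdyn), agrp and prl2 were also among the 10 lowest, together with rgs5a, tnfrsf9a and the haemoglobin genes hbaa2 and hbba2. For agrp, 94% or more of the UMIs of the others lay in 3 barcodes in each library, and without the 3 richest barcodes the 2-fold difference was lost for agrp, prl2, hbaa2 and hbba2. Over a list of neuropeptide genes, none of 20 compared was 2-fold higher in both libraries, which in so short a list is near the 2.67% of all genes. The list did not include uts1, a peptide gene that was among the 20 highest genes. Of the listed genes, 7 were 2-fold lower in both libraries (cart3, trh, NTS, tac1, sst1.2, pdyn and crhb). The list had a median log2 ratio of -1.34 in CCK1/2-KO and -1.24 in WT, against -0.06 in CCK1/2-KO and -0.01 in WT over all genes compared. The 7 numbered 2 when 1 neurod6 UMI sufficed and 11 without the 3 richest barcodes. The most abundant peptide gene of the list in neurod6 neurons was adcyap1b, which encodes the peptide PACAP, at 1192 CPM in CCK1/2-KO and 1323 CPM in WT, against 2004 and 2088 CPM in the others.

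The regional identity of the neurons was examined with lists of genes typical of brain regions. Genes of the pallium, the dorsal telencephalon in which mammalian Neurod6 is best known, gave a divided picture. Of 13 pallium genes compared, 5 were 2-fold higher in both libraries (neurod2, bhlhe22, zbtb18, bcl11aa and bcl11ba) and none was 2-fold lower. The median log2 ratio of the 13 was -0.40 in CCK1/2-KO and 0.56 in WT. The zinc-finger gene bcl11aa had 381 CPM in CCK1/2-KO and 362 CPM in WT neurod6 neurons, against 111 and 76.8 CPM in the others. Its paralogue bcl11ba had 232 CPM in CCK1/2-KO and 205 CPM in WT neurod6 neurons, against 77.8 and 84.2 CPM. The genes that define the telencephalon were seen in few barcodes. Transcripts of foxg1a, the telencephalic forkhead factor, were found in 0.945% of CCK1/2-KO and 0.641% of WT neurod6 neurons, eomesa in 0.378% and 0.214%, and emx3 in 0.756% and 0.641%. No UMI of emx1 was counted in any neurod6 neuron. In CCK1/2-KO, 82.9% of the foxg1a UMIs lay in 3 barcodes. The 5 higher pallium genes were thus seen without foxg1a in nearly every neuron.

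Genes of the hypothalamus and preoptic area were divided as well. Of 28 compared, 2 were 2-fold higher in both libraries, lmx1ba among them, and 8 were 2-fold lower (isl1a, tbx3a, sox14, nkx2.4b, nkx2.2a, six6a, nr5a2 and fezf1), with a median log2 ratio of -0.93 in CCK1/2-KO and -0.79 in WT. The count of lower genes depended on the selection, with 1 when 1 neurod6 UMI sufficed and 13 when 3 were required. The LIM homeobox gene lmx1ba had 135 CPM in CCK1/2-KO and 99.3 CPM in WT neurod6 neurons, against 21.8 and 11.2 CPM, and was found in 47.4% and 41.5% of neurod6 neurons in CCK1/2-KO and WT. In the mouse, Lmx1b is expressed in the subthalamic nucleus and neighbouring posterior hypothalamus. The Wnt effector gene lef1, which is needed for posterior hypothalamic neurons in zebrafish, had 245 CPM in CCK1/2-KO and 243 CPM in WT neurod6 neurons, against 117 and 131 CPM, with log2 ratios of 1.07 (0.95 to 1.19) in CCK1/2-KO and 0.89 (0.77 to 1.01) in WT.

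Factors of the tuberal and preoptic hypothalamus were rare in neurod6 neurons. The tuberal factor nkx2.1 was found in 2.65% of CCK1/2-KO and 3.21% of WT neurod6 neurons, against 9.52% and 7.42% of the others, and isl1a in 4.16% of CCK1/2-KO and 3.42% of WT neurod6 neurons, against 19.7% and 18.2%. The ventromedial hypothalamic factor nr5a1b was found in 4.73% of CCK1/2-KO and 2.99% of WT neurod6 neurons, against 16.6% and 14.4%. Low shares also held for otpa, a neuroendocrine and preoptic factor, with 4.73% in CCK1/2-KO and 4.49% in WT neurod6 neurons, against 6.95% and 9.3%.

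**Figure D2:**
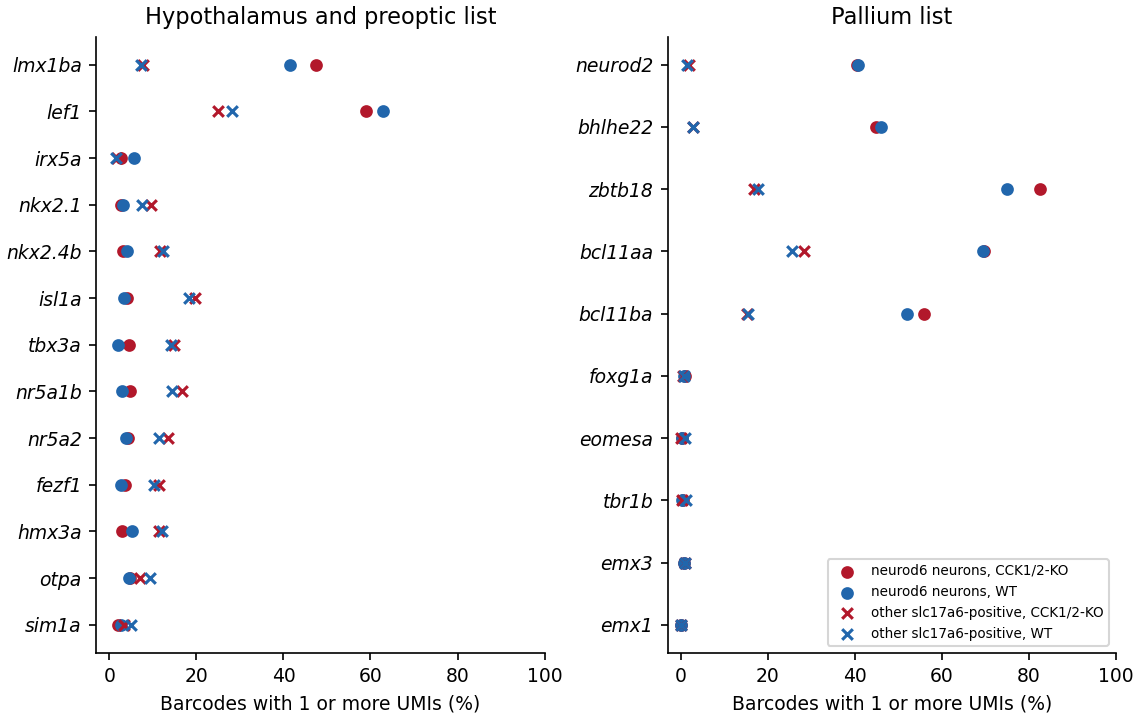
Share of barcodes (%) with 1 or more UMIs of genes from the hypothalamus and preoptic list (left) and the pallium list (right), with circles for neurod6 neurons and crosses for the other glutamatergic barcodes, red for CCK1/2-KO and blue for WT. Circles for lmx1ba and lef1 and for the 5 upper pallium genes lie far to the right of the crosses, whereas foxg1a, eomesa, tbr1b, emx3 and emx1 lie at or near 0 in all 4 sets.

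Lists for other regions held few genes that could be compared. None of 7 subpallial, 7 thalamic and pretectal, 4 habenular and 4 midbrain and tectal genes compared was 2-fold higher in both libraries, nor was either of the 2 hindbrain and cerebellar genes. Among all genes compared 2.67% were 2-fold higher, so that none in such short lists is near that share. Summed levels were 59.6 CPM in CCK1/2-KO and 106 CPM in WT neurod6 neurons for the subpallial list, 138 and 253 CPM for the thalamic and pretectal list, and 207 and 250 CPM for the habenular list. The sums of all 3 were lower than in the others of the same library. The midbrain and tectal list reached 19.9 CPM in CCK1/2-KO and 23 CPM in WT neurod6 neurons, and the hindbrain and cerebellar list 3.45 and 17.3 CPM. The pallium list summed to 1619 CPM in CCK1/2-KO and 1436 CPM in WT neurod6 neurons, against 482 and 431 CPM in the others. The hypothalamus and preoptic list summed to 1124 CPM in CCK1/2-KO and 1018 CPM in WT neurod6 neurons, against 1126 and 1058 CPM. The data therefore gave the neurons no single regional list. They carried neurod1, neurod2, bhlhe22, lmx1ba and lef1 and, with few exceptions, no foxg1a, and the dissected sample was labelled hypothalamus.

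Receptor and channel genes, and the lists that follow, were counted beside the shares among all genes compared. Those were 2.67% for 2-fold higher and 2.85% for 2-fold lower. Of 20 ionotropic glutamate receptor genes compared, 4 were 2-fold higher in both libraries and 4 were 2-fold lower. The kainate receptor gene GRIK1 (ENSDARG00000069139) had 1089 CPM in CCK1/2-KO and 671 CPM in WT neurod6 neurons, against 83.5 and 55.6 CPM in the others. The NMDA receptor gene GRIN2C (ENSDARG00000078149) had 197 CPM in CCK1/2-KO and 148 CPM in WT neurod6 neurons, against 6.96 and 7 CPM. The obligatory NMDA subunit gene grin1a had 1650 CPM in CCK1/2-KO and 1683 CPM in WT neurod6 neurons, against 703 and 698 CPM. The fourth was the AMPA receptor gene gria3a, whereas gria1a, gria1b, grin2ab and GRIK4 were lower. Other copies of GRIN2C and GRIK1 under different identifiers were at 20.1 CPM or below in neurod6 neurons, and reads shared between such copies cannot be told apart here.

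Among 17 GABA and glycine receptor genes compared, gabra4 and glrba were 2-fold higher in both libraries, and gabrg3 and gabra3 were 2-fold lower. The GABA-A subunit gene gabra4 had 450 CPM in CCK1/2-KO and 462 CPM in WT neurod6 neurons, against 40 and 25.5 CPM in the others. It was found in 74.7% of CCK1/2-KO and 76.5% of WT neurod6 neurons. None of 18 potassium channel genes compared was 2-fold higher, which in so short a list is near the 2.67% of all genes. Of the same 18, 3 were 2-fold lower (one KCNQ5 and one KCNT1 gene among them). A second calcium-binding gene, the parvalbumin pvalb7, had 434 CPM in CCK1/2-KO and 432 CPM in WT neurod6 neurons, against 56.1 and 39.5 CPM, while the list's hpcal4, ncaldb and pvalb6 were 2-fold lower.

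The mature neuron list was divided. Of 18 compared, 5 were 2-fold higher in both libraries (snap25a, snap25b, elavl4 and both RBFOX3 genes) and camk2a was 2-fold lower, with a median log2 ratio of 0.58 in CCK1/2-KO and 0.46 in WT. The vesicle fusion gene snap25b had 990 CPM in CCK1/2-KO and 947 CPM in WT neurod6 neurons, against 200 and 247 CPM in the others. Of 13 immature neuron genes only ebf2 was 2-fold higher, at 65 CPM in CCK1/2-KO and 54 CPM in WT neurod6 neurons, against 3.32 and 2.92 CPM. Among 35 adhesion and axon guidance genes, epha4a, nrp2a and one NTNG2 gene were 2-fold higher and 5 were 2-fold lower.

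Receptors for cholecystokinin were sparse. The receptor gene cckbra was found in 2.65% of CCK1/2-KO and 4.06% of WT neurod6 neurons, against 11.1% and 10.9% of the others, at 8.37 CPM in CCK1/2-KO and 8.64 CPM in WT neurod6 neurons, against 36 and 28.7 CPM. The gene listed as CCKBR, placed as cckbrb by 24 of its 26 matched neighbours in the feature list, was found in 1.51% of CCK1/2-KO and 0.427% of WT neurod6 neurons, and CCKAR gave 1 UMI in CCK1/2-KO and none in WT. The peptide gene ccka was found in 11% of CCK1/2-KO and 17.5% of WT neurod6 neurons, against 4.67% and 15.1% of the shallower red-cell barcodes, and after reduction to 1000 UMIs in 2.65% and 3.42%, against 2.46% and 8.43%. At least 10 UMIs of ccka were held by 5 CCK1/2-KO and 7 WT neurod6 neurons, and by 47 and 32 of the others. UMIs of ccka in the CCK1/2-KO library are no check of its label, since tags outside the deleted bases can still be counted. The other edited gene was not analysed here. Of 7 steroid receptor and aromatase genes compared, the mineralocorticoid receptor gene nr3c2 was 2-fold higher, with 489 CPM in CCK1/2-KO and 487 CPM in WT neurod6 neurons, against 105 and 125 CPM, and the estrogen receptor genes esr2a and esr2b were 2-fold lower.

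Markers of other cell types were present at differing levels. At least 2 UMIs of gad1b, gad2 or slc32a1, genes of GABA synthesis and loading, were found in 9.45% of CCK1/2-KO and 11.3% of WT neurod6 neurons, against 27.4% and 29.8% of the others. All 9 compared astroglial genes were under the 2-fold mark in one or both libraries, with summed levels of 1032 CPM in CCK1/2-KO and 1530 CPM in WT neurod6 neurons, against 2276 and 1328 CPM in the others. For 7 compared red-cell genes, 6 were 2-fold lower, with summed levels of 2004 CPM in CCK1/2-KO and 1954 CPM in WT neurod6 neurons. Of 7 microglial genes compared, cd74a was 2-fold lower than in the others and none was 2-fold higher. The microglial list summed to 265 CPM in CCK1/2-KO and 127 CPM in WT neurod6 neurons, against 540 and 697 CPM in the others. Between the libraries cd74a was 2-fold higher in CCK1/2-KO neurod6 neurons, but not without the 3 richest barcodes. Defining microglial genes c1qa, c1qb and c1qc gave between 1 and 5 UMIs each in a library's neurod6 neurons. The myelin gene mag, at 31 CPM in CCK1/2-KO and 36.9 CPM in WT neurod6 neurons, against 9.5 and 11.6 CPM, was the 1 oligodendrocyte gene of 8 that was 2-fold higher. A doublet score marked 12.1% of CCK1/2-KO and 10.5% of WT neurod6 neurons for removal, against 10.4% and 8.15% of the others.

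How the neurons varied among themselves was examined by clustering them without the 5 selecting genes and without genes 2-fold apart between the libraries. This gave 9 clusters, and the genes that separate them describe the clustering and are no independent result. Clusters 1, 2 and 5, with 356, 190 and 102 barcodes, shared calb2a in 95% to 98% of their barcodes, PLCH1 in 94% to 95%, EPHA6 in 99% and gabra4 in 93% to 94%. Together they made up 65% of all neurod6 neurons. Cluster 1 was led by hspb1, mymx and gadd45ga and by the heat shock genes hsp70.1 and hsp70l, and uts1 was found in 75% of it. Cluster 2 was led by cerkl, chrna7a and the potassium channel gene KCNH8. Cluster 5 was led by the potassium channel subunit gene kcnab1b, found in 89% of its barcodes against 27% of the rest, with kcnd3 in 93% and GRIN2C in 73%.

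Clusters 3 and 4 departed from that pattern. Cluster 4, with 123 barcodes, was led by rtn4rl2b, adrb2a and ENSDARG00000117603, with NTNG1 (ENSDARG00000073713) in 81% of its barcodes, calb2a in 72% and uts1 in 7%. Cluster 3, with 145 barcodes, held calb2a in 28% and nr5a1b in 20%, and was led by WHRN, NTSR1, cbln1 and unc5da. The GABA synthesis gene gad2 was found in 44.8% of it, at 448 CPM against 50.7 CPM in the rest of the neurod6 neurons. Prodynorphin (pdyn) was found in 29% of it, at 305 CPM against 15.9 CPM. Cluster 3 thus held much of the gad2 and pdyn signal of the neurod6 neurons. It was deeper, with a median of 14131 UMIs, and nearer the limit of the rule, with a median of 3 neurod6 UMIs and 53.8% of its barcodes at 2 or 3. Of its barcodes 19.3% were marked as likely doublets. The peptide gene ccka had 605 UMIs in cluster 3, at 260 CPM against 38.5 CPM in the rest of the neurod6 neurons. It was found in 22.8% of the cluster's barcodes, against 12.6% of the rest. The part of depth and doublets in cluster 3 was not tested.

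The small clusters carried genes of other cells or regions. Cluster 6, with 31 barcodes, was led by red-cell genes, and 48.4% of it was marked as likely doublets. Cluster 7, with 19 barcodes and a median of 22469 UMIs, was led by the glial genes slc1a3b, mdka and f3b, and 63.2% of it was so marked. Cluster 8, with 18 barcodes, was led by bcl11ab, isl1a and tmsb and held tubb5 in 89%. Cluster 9, with 13 barcodes of which none was marked, held lmx1bb in 100%, barhl2 in 85%, foxa1 in 77% and irx3a in 77%, and no UMI of neurod1. In the other 8 clusters lmx1bb was found in at most 12.2%.

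**Figure D3:**
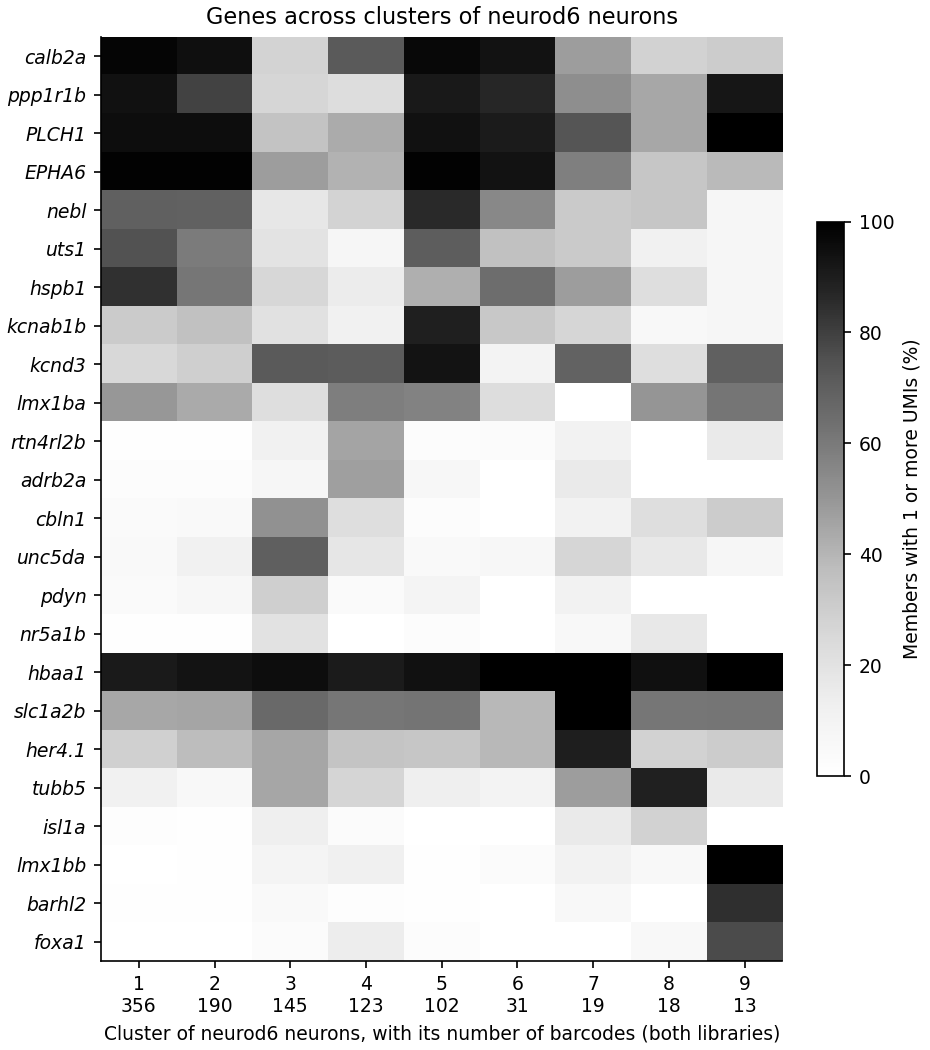
Share (%) of the barcodes of each cluster of neurod6 neurons (columns, with the number of barcodes from both libraries) that held 1 or more UMIs of a gene (rows), from white for 0% to black for 100%. Clusters 1, 2 and 5 share the calb2a to EPHA6 rows, cluster 4 shows rtn4rl2b and adrb2a, cluster 3 cbln1 and unc5da, and cluster 9 lmx1bb, barhl2 and foxa1.

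The first comparison of the genotypes was the share of neurod6 neurons among barcodes with 1000 or more UMIs. It was 6.35% (5.84% to 6.90%, exact binomial limits) of 8330 in CCK1/2-KO and 6.79% (6.21% to 7.41%) of 6892 in WT. The ratio of the shares was 0.935 (0.829 to 1.05), a difference within counting error. After reduction of every barcode to 1000 UMIs, 95 CCK1/2-KO barcodes (1.14%) and 85 WT barcodes (1.23%) met the rule, with a ratio of 0.925 (0.691 to 1.24). Fewer cells of this kind and fewer captured from one suspension cannot be told apart in single libraries.

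Clusters 1, 2 and 5 together made up 65.8% (61.6% to 69.8%) of CCK1/2-KO and 64.1% (59.6% to 68.5%) of WT neurod6 neurons, a ratio of 1.03 (0.936 to 1.12). Within them the split differed. Cluster 1 held 39.9% (35.7% to 44.2%) of CCK1/2-KO and 31% (26.8% to 35.4%) of WT neurod6 neurons, and cluster 2 held 14% (11.1% to 17.2%) of CCK1/2-KO and 24.8% (20.9% to 29%) of WT neurod6 neurons. Heat shock genes were among those leading cluster 1, and their sum was higher in CCK1/2-KO than in WT within both clusters. Their summed level was 33027 CPM in CCK1/2-KO and 26608 CPM in WT within cluster 1, and 13914 CPM in CCK1/2-KO and 8462 CPM in WT within cluster 2. Over all neurod6 neurons the same 19 genes summed to 19176 CPM in CCK1/2-KO and 13232 CPM in WT, and over the other glutamatergic barcodes to 11464 CPM in CCK1/2-KO and 8424 CPM in WT. Their part in the split was not tested. Clusters 3 and 4 held 13.4% and 13.4% of CCK1/2-KO and 15.8% and 11.1% of WT neurod6 neurons, with overlapping limits, and cluster 9 held 3 CCK1/2-KO and 10 WT barcodes.

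**Figure D4:**
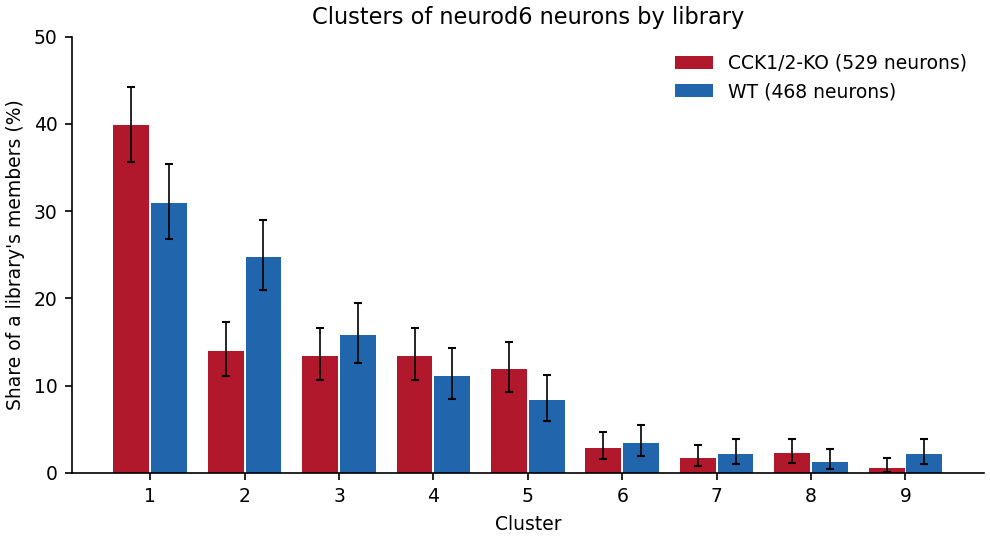
Share (%) of a library's neurod6 neurons in each cluster, with CCK1/2-KO in red (529 neurons) and WT in blue (468 neurons), and 95% exact binomial limits for counting error. Cluster 1 is larger in CCK1/2-KO (39.9%, against 31% in WT) and cluster 2 smaller (14%, against 24.8% in WT), and the limits of the other clusters overlap.

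The second comparison was of gene levels in neurod6 neurons of CCK1/2-KO against WT. Several genes that set the neurons apart had close levels in both libraries. As log2 ratios of CCK1/2-KO to WT, the values were -0.17 (-0.25 to -0.10) for calb2a, 0.15 (-0.06 to 0.36) for neurod2 and -0.04 (-0.13 to 0.05) for gabra4. The intervals of neurod2 and gabra4 include no difference, and that of calb2a lies just below it. GRIK1 (ENSDARG00000069139) differed more, at 1089 CPM in CCK1/2-KO and 671 CPM in WT.

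Over all 10402 genes with 60 or more UMIs, 75 (0.721%) were 2-fold or more higher in CCK1/2-KO and 88 (0.846%) were 2-fold or more lower. More than 50% of the UMIs lay in 3 barcodes for 46 of the higher and 41 of the lower genes. When the 3 barcodes richest in a gene were left out of each library and 10 or more barcodes were required, 24 genes higher and 41 lower remained 2-fold apart. The 10 of these farthest in each direction are described.

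Of the 10 lower genes named, 8 were also 2-fold lower in CCK1/2-KO among the other glutamatergic barcodes. The exceptions were her15.2, with a log2 ratio of 0.03 there, and adra1aa, with -0.87. With 5 CPM added the farthest was cyp19a1b, which encodes brain aromatase and is expressed in radial glia of the teleost brain. It had 56 UMIs (13.8 CPM) in CCK1/2-KO and 1153 UMIs (277 CPM) in WT neurod6 neurons, a log2 ratio of -4.33 (-4.74 to -3.94), and 43.2 CPM in CCK1/2-KO and 222 CPM in WT among the others. In WT, 60.5% of the UMIs lay in 3 barcodes. Transcripts were found in 2.46% of CCK1/2-KO and 31.2% of WT neurod6 neurons. After reduction to 1000 UMIs the shares were 0.189% in CCK1/2-KO and 7.48% in WT neurod6 neurons, below the 1.69% and 14.6% of red-cell barcodes in the same libraries. Its level in red-cell barcodes was 14.2 CPM in CCK1/2-KO and 93.8 CPM in WT, so that in WT the level was higher in the neurod6 neurons while the reduced share was lower. In the 5 largest clusters, 1 to 5, the WT level was 53.5, 89.8, 70.9, 44.3 and 22.3 CPM, each below that of WT red-cell barcodes. These clusters held 52, 59, 84, 23 and 7 of the 1153 WT UMIs, so that most lay in the small clusters 6 to 9. The part of free RNA in these values was not tested. The myelin gene mpz had 123 UMIs in CCK1/2-KO and 497 UMIs in WT, and the lysosomal protease gene ctsba 24 and 142 UMIs. Both were below the red-cell barcodes of both libraries in reduced share and in level. For mpz the level was 30.3 CPM in CCK1/2-KO and 119 CPM in WT neurod6 neurons, against 53.9 and 142 CPM in red-cell barcodes. In WT, 51.9% of the mpz UMIs lay in 3 barcodes. Its WT level was 204 CPM in cluster 1 and 261 CPM in cluster 5, but 70, 112 and 38.5 CPM in clusters 2, 3 and 4. How far free RNA gave the mpz and ctsba values was not tested.

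Of the other lower genes, rbm14b, FAXC, slc7a2 and scg5 had CPM levels above those of the red-cell barcodes in WT. The RNA-binding protein gene rbm14b had 3 UMIs in CCK1/2-KO and 172 UMIs in WT neurod6 neurons, a log2 ratio of -5.80 (-8.10 to -4.23), and was found in 0.567% of CCK1/2-KO and 23.1% of WT neurod6 neurons, against 0 of 771 CCK1/2-KO red-cell barcodes, which allows up to 0.389%, and 1.38% of 581 WT red-cell barcodes. Among the other glutamatergic barcodes it had 0.633 CPM in CCK1/2-KO and 35.5 CPM in WT. The FAXC gene ENSDARG00000075956, a relative of the fly gene failed axon connections, had 47 UMIs in CCK1/2-KO and 224 UMIs in WT neurod6 neurons, a log2 ratio of -2.21 (-2.70 to -1.76). The cationic amino acid transporter gene slc7a2 had no UMI in CCK1/2-KO and 69 UMIs in 40 WT neurod6 neurons. Its WT level was 22.4-fold above the floor that 3 counts give in the CCK1/2-KO neurons. With counting error in both libraries, the log2 ratio had an upper limit of -4.15. After reduction to 1000 UMIs, rbm14b, FAXC and slc7a2 were found in 4.49%, 3.85% and 1.5% of WT neurod6 neurons, against 0.172%, 0.861% and 0.688% of WT red-cell barcodes. The gene scg5, which encodes a chaperone of prohormone convertase 2, had 4 UMIs in CCK1/2-KO and 106 UMIs in WT neurod6 neurons, a log2 ratio of -4.69 (-6.59 to -3.29). Its reduced share in WT, 0.855%, was close to the 0.861% of the red-cell barcodes, whereas its level was 25.4 CPM in WT neurod6 neurons and 3.66 CPM in those barcodes. With 5 CPM added, all of rbm14b, FAXC, slc7a2 and scg5 were 2-fold lower in each of the 5 largest clusters and in the other glutamatergic barcodes. Some of these cluster values rest on few UMIs. For scg5 in cluster 5 there were 0 in CCK1/2-KO and 3 in WT, with an upper limit of 0.89 that includes no difference. For slc7a2 in cluster 4 there were 0 in CCK1/2-KO and 7 in WT. The remaining lower genes, her15.2, adra1aa and si:dkey-200l5.4, had 54.8% to 70.7% of their WT UMIs in 3 barcodes. Their WT levels were 53, 59.5 and 45.1 CPM in neurod6 neurons, against 13.3, 34.8 and 94.7 CPM in red-cell barcodes. After reduction to 1000 UMIs the WT shares were 1.07%, 2.14% and 1.28%, against 2.93%, 1.72% and 3.44% of red-cell barcodes. Among the 5 largest clusters, her15.2 was 2-fold lower in 0, adra1aa in 2 and si:dkey-200l5.4 in 4. The log2 ratio of her15.2 with 5 CPM added lay between -0.99 and 1.26 in those clusters. Clusters 1 to 5 held 5, 11, 10, 1 and 1 of its 221 WT UMIs, so that most lay in clusters 6 to 9. For adra1aa, 22 of 32 CCK1/2-KO and 227 of 248 WT UMIs lay in cluster 3.

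With 5 CPM added, the log2 ratios of the 10 higher genes lay between 1.26 and 2.37, against -1.82 to -3.91 for the 10 lower genes. The gene dip2ba, of a conserved family that acts in axon growth in other species, had 368 UMIs in 125 CCK1/2-KO neurons and 113 UMIs in 74 WT neurons, a log2 ratio of 1.74 (1.43 to 2.06). Of these, 176 CCK1/2-KO and 23 WT UMIs lay in cluster 3, and in clusters 1 and 5 the log2 ratio with 5 CPM added was 0.95 and 0.66, under 2-fold. The Golgi gene GOLPH3 had 198 UMIs in 64 CCK1/2-KO and 59 UMIs in 25 WT neurons, a log2 ratio of 1.78 (1.36 to 2.23). These 2 were also 2-fold higher in CCK1/2-KO among the other glutamatergic barcodes, at 130 and 53.2 CPM in CCK1/2-KO and 49.8 and 19.4 CPM in WT. SUSD2, which encodes a membrane protein, had 71 UMIs in 53 CCK1/2-KO neurons and 15 UMIs in 13 WT neurons, a log2 ratio of 2.28 (1.46 to 3.19). Its level among the others was 5.54 CPM in CCK1/2-KO and 2.33 CPM in WT, and whether the ratio differed between the sets was not tested.

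The scaffold gene GRIP2, which binds AMPA receptors, had 221 UMIs in 71 CCK1/2-KO and 80 UMIs in 38 WT neurons, a log2 ratio of 1.5 (1.13 to 1.89). Of these, 153 CCK1/2-KO and 44 WT UMIs lay in cluster 3. The ventromedial gene nr5a1b had 308 UMIs in 25 CCK1/2-KO and 106 UMIs in 14 WT neurons, of which 291 and 105 lay in cluster 3, so that its difference concerned few barcodes of the neurod6 neurons. For pnoca, mhc2dhb, prkar2ab and tbx3a, 51.6% to 81.2% of the CCK1/2-KO UMIs lay in 3 barcodes. With nothing added, the log2 ratio was 3.22 (2.57 to 3.95) for pnoca and 3.96 (2.93 to 5.20) for mhc2dhb. The tenth was ENSDARG00000102813, at 145 UMIs in CCK1/2-KO and 50 UMIs in WT.

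**Figure D5:**
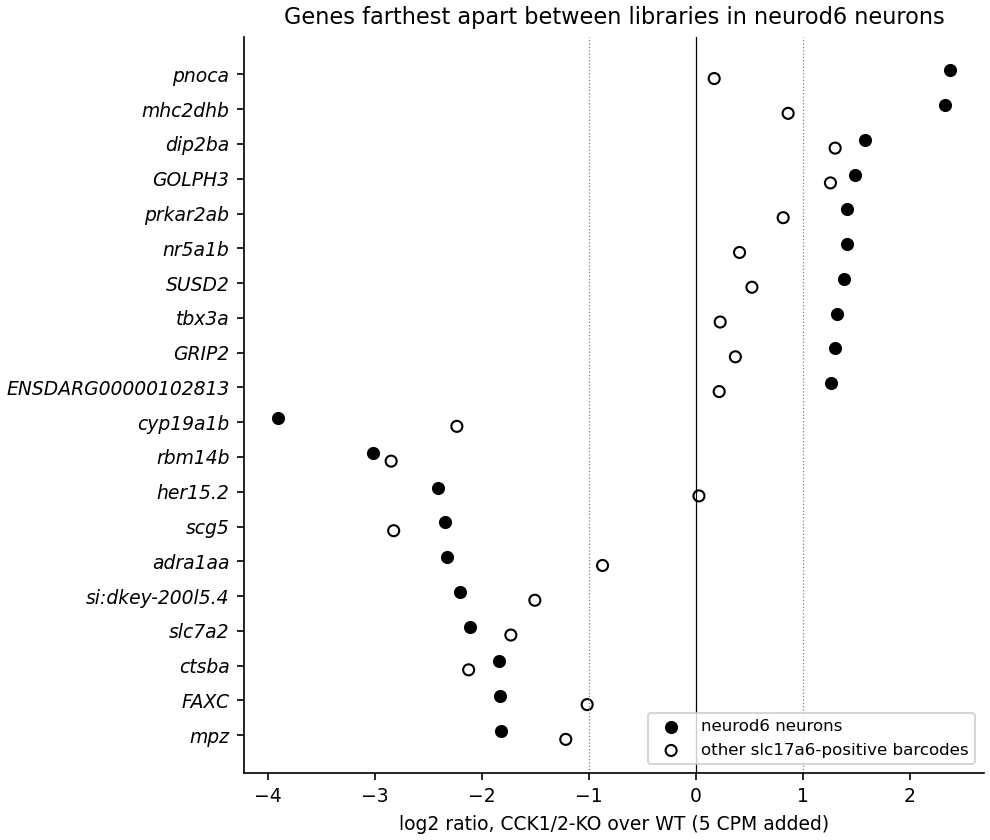
Log2 ratio of CCK1/2-KO over WT, with 5 CPM added to each level, of the 10 genes farthest in each direction in neurod6 neurons (filled circles) and of the same genes in the other glutamatergic barcodes (open circles). Dotted lines mark a 2-fold difference. For 8 of the 10 lower genes and 2 of the 10 higher genes (dip2ba and GOLPH3) the open circle is also past the line.

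Gene lists were also counted between genotypes, against the 0.721% higher and 0.846% lower among all genes. None of 19 ionotropic glutamate receptor genes was 2-fold higher and 1 was 2-fold lower, a low copy of GRIN2C with 83.3% of its WT UMIs in 3 barcodes. None of 18 mature neuron, 17 potassium channel and 16 heat shock genes was 2-fold apart in either direction. Of 18 neuropeptide genes, 3 were 2-fold higher and 6 were 2-fold lower, a larger share than among all genes. For npy, at 1.72 CPM in CCK1/2-KO and 135 CPM in WT, 98.4% of the WT UMIs lay in 3 barcodes, and without the 3 richest barcodes of each library none of the 9 was 2-fold apart. Of 23 hypothalamic and preoptic genes, 4 were 2-fold higher and 4 were 2-fold lower, and 3 of each remained so without the 3 richest barcodes. Cluster 3 held 291 of 308 CCK1/2-KO and 105 of 106 WT UMIs of nr5a1b, and 77 of 101 and 9 of 29 of tbx3a. The spread of the other called genes over the clusters is not given here. The gene barhl2 was called in this list and again in the thalamic and pretectal list. Of 7 thalamic and pretectal genes, 1 was 2-fold higher and 3 were 2-fold lower, of which 2 lower genes remained. Of 7 oligodendrocyte genes, 3 were 2-fold lower, of which only mpz remained. Both of the monoaminergic genes that were 2-fold higher, of 5, were under 2-fold without those barcodes.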

How the data were processed

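Deposited were UMI counts per gene and barcode, which the authors made with Cell Ranger on the zebrafish build GRCz11 before an analysis in Seurat. Each library had 1 raw count matrix. Its 32057 features included 11398 with no name of their own, of which 8368 were named from a table of symbols, and capitalised symbols were kept as listed. Of 412 listed genes, 15 were unmatched.

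Counts were summed over the neurod6 neurons and over the other glutamatergic barcodes of each library and divided by the set's total as CPM. Identity genes needed 30 UMIs in a set of each library. The 20 highest, by the smaller of the ratios in the 2 libraries, also needed a UMI in 20% of neurod6 neurons, and the 10 lowest were taken by the larger ratio. Genes between genotypes needed 60 UMIs over both libraries and 10 barcodes, and a 2-fold difference that remained without the 3 richest barcodes. Calls used 5 CPM added to both levels, whereas ratios given with limits had nothing added. Limits were exact Poisson-conditional for ratios of counts, Clopper-Pearson for shares and Katz for ratios of shares, at 95%, and depth set their width. The 2 libraries held 5.81e+07 UMIs (CCK1/2-KO) and 5.17e+07 UMIs (WT). Clustering (Leiden, resolution 0.6, 15 components, 15 neighbours) used 1500 variable genes after 163 genes that differed between libraries were left out. Likely doublets were scored with Scrublet and kept, and their removal was an alternative. The ratio script was tested on simulated counts. Python 3.11.15, numpy 2.4.6, scipy 1.17.1, pandas 2.3.3 and scanpy 1.11.5 were used. The neurons and gene lists were chosen with earlier results of these data known. Alternatives varied the UMI, neurod6 and transporter minimums, the barcodes and genes kept, the totals and the added CPM. Some listed genes are not reported here.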

Additional observations from a re-analysis of the deposited data

Results flagged for a closer look

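Of 10343 genes with 60 or more UMIs over both libraries in the neurod6 neurons and in the other glutamatergic barcodes, 5 were 2-fold apart between CCK1/2-KO and WT in opposite directions in the 2 sets. The difference between the sets was not tested, and none of the 5 remained so without the 3 barcodes richest in the gene. For pmchl, a melanin-concentrating hormone gene, the log2 ratio with 5 CPM added was 5.43 in neurod6 neurons and -1.93 in the others. The pmchl value rested on 1 barcode, which held 21193 of the 21355 UMIs in CCK1/2-KO, against 487 UMIs in WT. Without the 3 richest barcodes the ratio in neurod6 neurons was -1.43. Any pmchl UMI was found in 25.7% of CCK1/2-KO and 62.0% of WT neurod6 neurons, against 26.2% and 53.0% of red-cell barcodes.

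For c16h2orf66 the log2 ratio was -5.94 in neurod6 neurons and 6.79 in the others, with 99.2% of the WT UMIs of the neurod6 neurons in 3 barcodes. For ENSDARG00000111436 it was -1.67 in neurod6 neurons and 2.21 in the others, for si:ch211-131k2.2 it was 1.77 and -1.91, and for grna.1 it was 1.43 and -1.01.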

How the results depend on the processing

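The ratio of CCK1/2-KO to WT shares stayed between 0.882 and 0.965 under every alternative, within its main limits of 0.829 to 1.05. All 20 genes named as higher in neurod6 neurons stayed past 2-fold in all 220 recomputed values, and the 10 lower ones in 97 of 109. The 20 had been chosen as the farthest above the others in largely the same barcodes, so their staying past 2-fold says little. The 396 genes higher in neurod6 neurons numbered 602 with clusters 1, 2, 4, 5 and 9 alone, a setting chosen after seeing the data. The 422 lower genes numbered 1417 there, 748 with 3 neurod6 UMIs required, 85 with 1, 684 without GABAergic barcodes, 708 without the 3 barcodes richest in a gene and 826 with 1 CPM added. The 75 genes higher in CCK1/2-KO numbered 49 with 1 neurod6 UMI, 32 without the 3 richest barcodes, 146 with 1 CPM added and 49 at the doubled UMI minimum. The 88 lower genes numbered 39 without the 3 richest barcodes, 161 with 1 CPM added and 55 at the doubled minimum. With the listed clusters alone, 18 hypothalamic, 16 neuropeptide and 4 pallium genes were lower, against 8, 7 and 0. Reversed were trh, with a log2 ratio to the others of 0.10 with 1 neurod6 UMI, and agrp, with 0.25 without GABAergic barcodes and 0.12 without the 3 richest. The cause was not tested. Of the values for the 10 genes higher and 10 lower in CCK1/2-KO, 101 and 106 of 110 each stayed past 2-fold. These genes had been chosen as past 2-fold also without the 3 richest barcodes, so their values at that setting could not fall short. No paired analysis was possible because each genotype had 1 library. This holds for the genotypes, whereas neurod6 neurons and the others were compared within each library, with no test run. Low genes were limited by depth, and no replicate separates genotype from pool.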
